A study of Mus musculus with 62 samples.

Results

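Chronic ethanol was compared with chronic saline in the cortex, with 3 libraries from ethanol-treated mice (CE) and 3 from saline-treated mice (CP). These are 6 of the 62 poly(A) RNA libraries of the series, chosen by their labelled region, paradigm and treatment, with no measured value in the choice. The mice were male C57BL/6J, an inbred strain, aged 8 to 10 weeks, and received 10 daily intraperitoneal injections of 2 g/kg ethanol (20% in saline) or of saline alone, and tissue was taken 4 h after the last injection. Both groups share the repeated handling and injection, and a difference between them holds the last dose as well as the earlier ones. Each library carries the label of 1 mouse, and no mouse gave more than 1 cortex library. The acute cortex groups used for comparison had 1 injection of saline (AP) or ethanol (AE) at the same dose, age and time after injection, with 3 libraries each and no library in common with the chronic groups. The 25 chronic libraries of the dorsal and ventral hippocampus (dHPC, vHPC) and the dorsal and ventral striatum (DS, VS) came partly from the same mice. Those of vHPC, DS and VS were made with another library kit and sequencer than those of cortex and dHPC. Whole tissue was sequenced, so that fewer cells of a type and less RNA per cell cannot be told apart.

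Ethanol is oxidised to acetaldehyde and acetate, and a single intoxicating dose activates the stress axis, which releases corticosterone. The glucocorticoid receptor then switches on target genes such as Fkbp5, whose product dampens the same receptor. With repeated exposure, cortical neurons are known to adapt their glutamate receptors, GABA-A receptors and voltage-gated calcium channels, and acetate can feed the acetylation of histones. Gene lists for these processes are described below alongside the single genes.

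The gene tables held 43173748 to 54072243 counts per library, and 4.07 to 6.68% of them were mitochondrial. Markers of pallial excitatory neurons summed to 5051 to 6248 CPM (counts scaled to library size) in all 6 libraries, against 381 to 411 CPM for striatal projection neuron markers and 5.64 to 27.5 CPM for choroid plexus markers. The cortex kit did not mark the strand, yet the reads were counted with a reverse-strand setting, so a gene and its antisense neighbour cannot be told apart. Among the genes called below, 57.1% share exons with a gene on the other strand, as do 55.2% of all genes tested.

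The number of genes that differed between the chronic groups depended strongly on the test. Of 25644 genes tested with edgeR, 0 passed a Benjamini-Hochberg FDR of 0.1 (0% called), and the smallest FDR was 0.443. With no adjustment, 2656 genes (10.4%) had an edgeR p below 0.05, of which 1106 (4.31%) were higher and 1550 (6.04%) lower after ethanol. DESeq2, the test used in the study, called 156 genes (0.608%), 28 higher (0.109%) and 128 lower (0.499%). The groups did not overlap for 155 of these 156 genes, while 18.2% of all genes tested had groups that did not overlap (8.99% higher and 9.24% lower). The calls were made on the same libraries, so this lack of overlap lends them no separate support. All 156 had the same sign in edgeR, with unadjusted p-values up to 0.00729. When edgeR shared its estimate of spread over all 4 cortex groups, it called 77 genes (0.29%), 16 higher (0.0603%) and 61 lower (0.23%), and 65 of the 77 were among the 156. DESeq2 fitted over the same 4 groups called 1252 (4.72%), 579 higher (2.18%) and 673 lower (2.54%). A gene is therefore named as called only with the tool that called it, and fold changes and standard errors (SE) are those of edgeR.

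The DESeq2 count also depended on single libraries. Leaving out CP replicate 3, CP replicate 5, CP replicate 6 or CE replicate 5 left 5, 59, 71 and 22 calls, whereas leaving out CE replicate 1 or CE replicate 6 gave 917 and 250. Only Rreb1, Csmd2 and the gene model Gm48239 were called without each of the 6 libraries in turn.

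On the higher side, DESeq2 called 13 protein-coding genes, 14 processed pseudogenes and 1 microRNA gene. Fkbp5, Tgm2, Chst8, Igfbp4, Islr2 and Sh3bp5 were among the 13, as were Xlr3a and Xlr3b, which are taken up further on. Fkbp5 (ENSMUSG00000024222, GRCm39 chr17:28618068-28736498, minus strand) encodes a co-chaperone of the glucocorticoid receptor. Its level was 26.1, 25.8 and 23.5 CPM in the saline mice and 40.6, 32.3 and 44.4 CPM in the ethanol mice. All 3 ethanol mice were above all 3 saline mice, a log2 fold change of 0.64 (SE 0.12, 1.56-fold, DESeq2 FDR 0.0094, edgeR FDR 0.443). Tgm2 (chr2:157958322-157988356, minus strand) encodes transglutaminase 2, an enzyme that crosslinks proteins. Tgm2 measured 9.69, 9.66 and 9.0 CPM after saline and 14.6, 11.7 and 14.4 CPM after ethanol, and again the groups did not overlap (log2 fold change 0.52, SE 0.12, DESeq2 FDR 0.0613).

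Chst8 (chr7:34373893-34512111, minus strand) encodes a Golgi enzyme that adds sulfate to N-acetylgalactosamine on glycoproteins. It stood at 7.89, 9.28 and 8.69 CPM after saline and at 14.4, 11.8 and 14.1 CPM after ethanol (log2 fold change 0.64, SE 0.12, DESeq2 FDR 0.0145). Igfbp4, a secreted binding protein of insulin-like growth factors, gave 69.3, 85.2 and 66.1 CPM after saline. After ethanol its 3 values were 102, 102 and 101 CPM (log2 fold change 0.47, SE 0.10, DESeq2 FDR 0.0424). The ethanol mice were nearly equal, and the saline mice spread over 10.2 CPM (SD). Islr2, a neuronal membrane protein with leucine-rich repeats, ran from 31.9 to 57.8 CPM after saline and from 64.5 to 83.9 CPM after ethanol (log2 fold change 0.73, SE 0.19, DESeq2 FDR 0.0445). Sh3bp5, which encodes an exchange factor for the vesicle-transport GTPase Rab11, had 45.0 to 47.5 CPM against 55.9 to 59.7 CPM (log2 fold change 0.32, SE 0.08, DESeq2 FDR 0.0998). Fam110d, of less well described function, stood at 1.75 ± 0.254 CPM after saline and 3.08 ± 0.449 CPM after ethanol (mean ± SD, n = 3; log2 fold change 0.82, DESeq2 FDR 0.0832). With the trend with exon length removed, as described with the lower genes, Fkbp5, Tgm2, Chst8, Igfbp4 and Islr2 were still called by DESeq2 and Sh3bp5 (FDR 0.181) and Fam110d (FDR 0.236) were not.

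**Figure D1:**
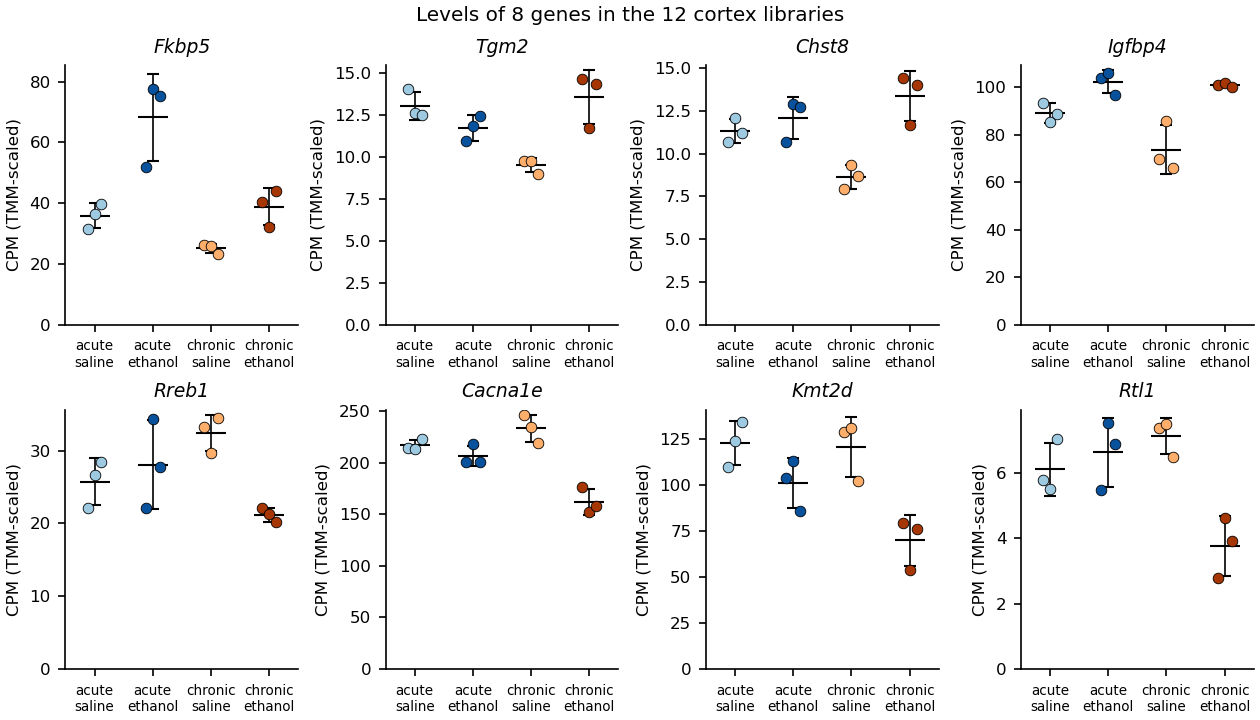
TMM-scaled CPM of 8 genes in the 12 cortex libraries, with the mean and SD of each group of 3 mice (black). In the chronic groups, Fkbp5, Tgm2, Chst8 and Igfbp4 are higher and Rreb1, Cacna1e, Kmt2d and Rtl1 lower after ethanol with no overlap; in the acute groups, Fkbp5 is higher after ethanol, and the Tgm2 difference of -0.15 was not called.

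Among 20 glucocorticoid target genes, 14 were above 0, 4 were higher with an unadjusted p below 0.05, 0 were lower, and Fkbp5 alone was called by DESeq2. The list median was 0.12, against -0.01 over all genes tested, of which 4.31% were higher and 6.04% lower at that threshold. Besides Fkbp5, the 4 were, named after their values were seen, Mt2 (log2 fold change 0.28), a metal-binding metallothionein, Plin4 (1.00), a coat protein of lipid droplets, and Arrdc2 (0.32), an arrestin-domain protein. Plin4 had 4.89, 8.09 and 3.05 CPM after saline and 16.5, 7.46 and 8.35 CPM after ethanol, so the groups overlapped and the 1.00 (SE 0.37) was not called by either tool. Tsc22d3 and Sgk1, textbook targets of the receptor that were looked up after their values were seen, gave 0.17 and -0.19 and were not called. Tmem151b, which encodes a membrane protein, measured 143 ± 14.8 CPM after saline and 153 ± 28.0 CPM after ethanol (mean ± SD, n = 3), a difference within the spread (log2 fold change 0.09, SE 0.13).

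Of the 28 higher calls, 14 were processed pseudogenes, copies of a messenger RNA that were inserted back into the genome. With the length trend removed, 0 of these 14 were called (for example Gm2451, DESeq2 FDR 0.304). The reason to look at their sequences is that 11 of the 14 aligned to the 1002 coding bases of Gapdh, the glycolytic enzyme glyceraldehyde-3-phosphate dehydrogenase, with 99.6 to 100% identical bases. In 3 of them, Gm7336, Gm10359 and Gm12671, every coding base was identical. The stretch from base 304 to base 363 of the Gapdh coding sequence and the matching stretches of 3 called pseudogenes are printed here (GENCODE annotation of GRCm39, coding strand), with bases unlike Gapdh in capitals.
Gapdh: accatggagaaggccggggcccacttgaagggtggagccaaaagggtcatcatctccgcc
Gm12671: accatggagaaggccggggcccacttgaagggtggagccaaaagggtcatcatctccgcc
Gm12070: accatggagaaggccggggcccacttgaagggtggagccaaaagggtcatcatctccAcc
Gm2451: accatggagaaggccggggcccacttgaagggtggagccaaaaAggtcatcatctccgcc

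Because pairs that map to several places were counted at each, up to an aligner limit on the number of places, a Gapdh read from such a stretch can count for Gapdh and for its copies. Gm12671 accordingly had 349, 354 and 362 CPM after saline and 424, 439 and 472 CPM after ethanol, and Gm10359 had 349, 354 and 361 against 424, 438 and 471 CPM. The 11 copies had log2 fold changes of 0.31 to 0.39 and are not 11 separate results. Gapdh itself, looked up after its copies were seen, had 1252, 1383 and 1326 CPM after saline and 1492, 1587 and 1741 CPM after ethanol. Its groups did not overlap, but the log2 fold change of 0.28 (SE 0.09) was not called by DESeq2 (FDR 0.232). A further 93 tested pseudogenes with Gapdh sequence were not called, and 71 of them had a log2 fold change above 0. Prdx2-ps1 (0.92, SE 0.21; DESeq2 FDR 0.152 with the length trend removed) and Rpl27-ps1 (0.62, SE 0.15; 0.286), copies of a peroxidase and of a ribosomal protein gene, were called as well, and they can share reads with their parent genes in the same way. Processed pseudogenes as a class had a median log2 fold change of 0.15 and took 1.76% ± 0.0933 of all counts after saline and 2.01% ± 0.0469 after ethanol (SD, n = 3; exact permutation p = 0.1, two-sided, the smallest 3 against 3 mice allow).

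The Xlr genes are a cluster of X-linked, lymphocyte-regulated genes that encode small nuclear proteins, and Xlr3b is known as an imprinted gene in the mouse brain. Xlr3a, Xlr3b and Xlr3c lie close together on GRCm39, at chrX:72129899-72140623 (minus strand), chrX:72235813-72246536 (plus strand) and chrX:72298146-72308996 (minus strand). Their coding sequences are near copies: 677 of 681 bases are identical between Xlr3b and Xlr3c (99.41%), and 654 between Xlr3a and either of them (96.04%, with 15 bases in gaps). The same 60 coding bases are printed from each, with the bases that differ among the 3 in capitals. The stretch was chosen for its many differences between Xlr3b and Xlr3c and is not a typical one. Even there, few positions can tell their reads apart.
Xlr3a: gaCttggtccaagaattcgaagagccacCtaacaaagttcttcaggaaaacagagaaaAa
Xlr3b: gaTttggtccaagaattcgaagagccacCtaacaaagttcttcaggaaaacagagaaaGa
Xlr3c: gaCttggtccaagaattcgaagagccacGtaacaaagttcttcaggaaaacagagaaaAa

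Xlr3b had 0.356, 0.110 and 0.877 CPM in the saline mice, from 16, 6 and 46 read pairs. In the ethanol mice it had 3.61, 2.29 and 5.05 CPM, from 155, 114 and 257 read pairs. The lowest ethanol mouse was above the highest saline mouse, with a log2 fold change of 3.02 (SE 0.54, 8.12-fold, DESeq2 FDR 0.0518, edgeR FDR 0.443). With the length trend removed the DESeq2 FDR was 0.112. Xlr3a had 0.311, 0.220 and 0.705 CPM against 1.72, 2.17 and 2.02 CPM (log2 fold change 2.25, SE 0.38, DESeq2 FDR 0.000275). Xlr3c went from 0.0445, 0.0366 and 0.248 CPM to 1.3, 0.603 and 1.06 CPM (3.12, SE 0.61), and DESeq2 gave it no FDR; its saline values rest on few counts. Of the other 3 members tested, Xlr4a measured 1.97 (SE 0.66, edgeR FDR 0.443), Xlr4b 0.87 (SE 0.65) and Xlr 0.09 (SE 0.39). Xlr4c, Xlr5a, Xlr5b and Xlr5c were too low to test.

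In the acute cortex libraries, Xlr3b stood at 6.38, 4.70 and 2.98 CPM after saline and at 5.20, 4.27 and 2.25 CPM after ethanol, so the acute mice of both treatments overlapped the chronic ethanol mice. The libraries of the same mice from other regions are given for comparison. Each region was scaled separately, and kit and sequencer differed between regions. Mice are therefore ranked within a region, and levels are not compared between regions. Saline mouse 3, at 0.356 CPM in the cortex, had 0.504 CPM in vHPC, 1.36 CPM in DS and 0.867 CPM in VS, and saline mouse 5, at 0.110 CPM in the cortex, had 0.524 CPM in dHPC and 0.716 CPM in VS. Saline mouse 2, which gave no cortex library, had 6.42 CPM in dHPC and 7.44 CPM in vHPC, above every ethanol mouse in those regions. Saline mouse 6 had 0.877 CPM in the cortex, 2.93 CPM in dHPC, 2.25 CPM in vHPC, 1.77 CPM in DS and 1.70 CPM in VS. Saline mice 3, 5 and 6 were each below every ethanol mouse in each region they gave. The 4 chronic saline mice thus ranged widely, with mouse 2 the highest, and the cortex libraries came from the other 3 of them. In dHPC and vHPC, where mouse 2 is included, the saline and ethanol groups overlapped. In DS (1.36 and 1.77 against 2.96 to 10.2 CPM) and VS (0.716 to 1.70 against 3.31 to 8.62 CPM) they did not, but neither comparison holds mouse 2, whose DS library has no counts on chromosome X. The part of differences between individual mice in the cortex result was not tested.

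**Figure D2:**
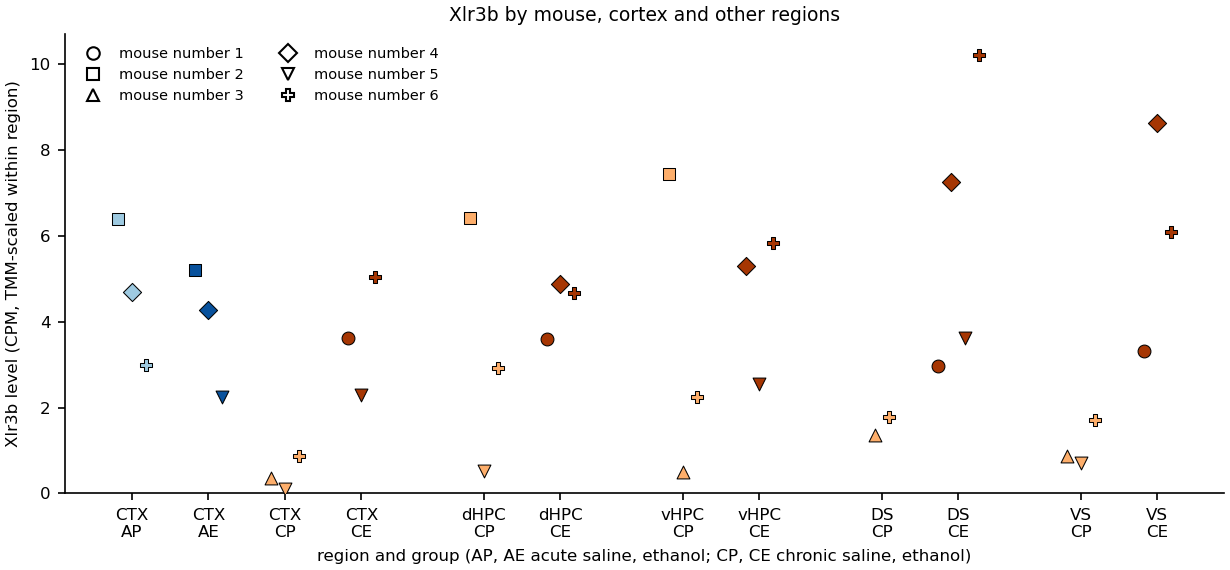
Xlr3b level (TMM-scaled CPM) in each cortex library of the 4 groups and in each chronic library of the other regions, with 1 symbol per mouse number within a group; equal numbers in different groups are different mice, and 1 DS saline library with no counts on chromosome X is left out. Chronic saline mice 3, 5 and 6 are below every ethanol mouse in each region they gave, and saline mouse 2 is the highest in dHPC and vHPC. The acute mice of both treatments overlap the chronic ethanol mice in the cortex.

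The 128 lower calls held 90 protein-coding genes, 24 long noncoding RNAs, 12 gene models still to be experimentally tested (TEC) and 2 microRNA genes. They were long: the median exon length was 9756 bases, against 1002 for the 28 higher calls and 3151 for the other genes tested. Among protein-coding genes alone the medians were 11753, 4045 and 4268 bases. The median log2 fold change went down over 8 equal classes of exon length, from 0.12 in the shortest to -0.14 in the longest. The longest class held 74 of the 154 calls that averaged 50 counts or more (3.28% of that class), 73 of them lower. In the acute cortex the same 8 medians lay between -0.02 and 0.01. The slope of the log2 level on log2 exon length was 0.044, 0.013 and 0.012 in the saline libraries and 0.001, -0.034 and -0.035 in the ethanol libraries, with no overlap (exact permutation p = 0.1, two-sided). DESeq2 was therefore repeated after the trend with exon length was taken out of each library. It then called 31 genes (0.121%), 8 higher (0.0312%) and 23 lower (0.0897%), and 26 of the 31 were among the 156. With GC content taken out together with exon length it called 164 (0.64%), 60 higher (0.234%) and 104 lower (0.406%), and 80 of them were among the 156. Both alternatives were chosen after the data were seen. Since the slopes did not overlap between the groups, the removal also takes out any ethanol difference that runs with exon length. The source of the trend was not tested.

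**Figure D3:**
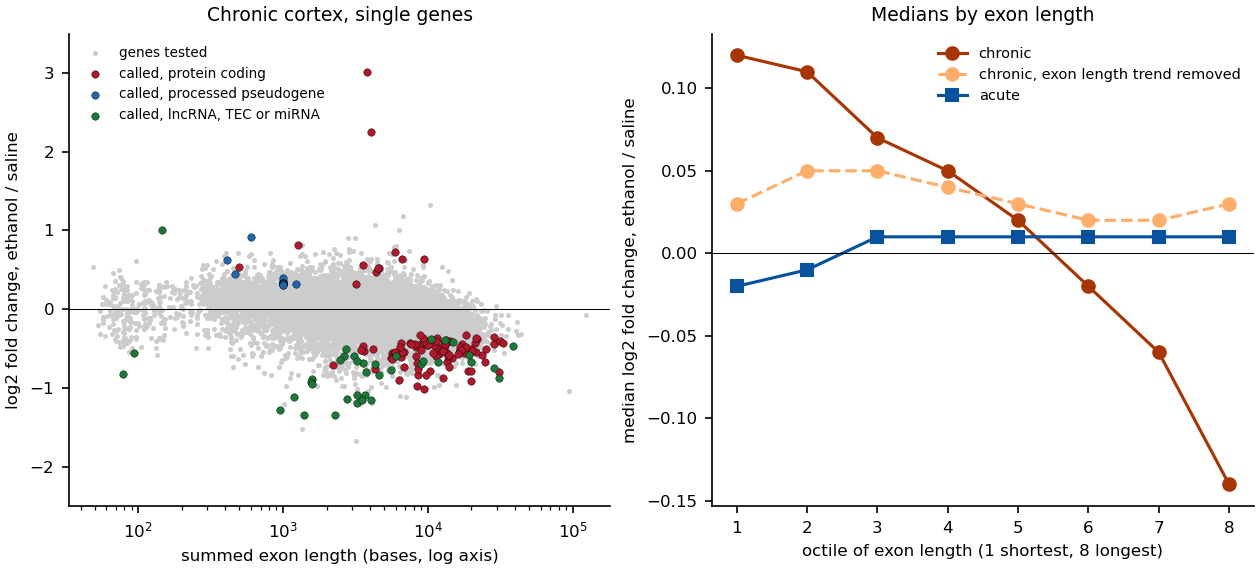
Left, log2 fold change of chronic ethanol over chronic saline against summed exon length (bases, log axis) for 18053 genes that averaged 50 counts or more, with the 154 DESeq2 calls among them coloured by class; right, the median log2 fold change in 8 equal classes of exon length. The chronic medians run from 0.12 to -0.14 and the acute ones from -0.02 to 0.01, and in the longest class 73 of 74 calls are lower.

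Rreb1, Csmd2, Zbtb37 and Cacna1e, the last of which is given with the channels, were among the lower genes with the smallest p under the naming rule. Rreb1, a zinc-finger transcription factor of the Ras pathway, measured 33.1, 29.4 and 34.4 CPM after saline and 22.2, 21.4 and 20.4 CPM after ethanol. Its log2 fold change was -0.60 (SE 0.09), with a DESeq2 FDR of 0.000872 and an edgeR FDR of 0.443. Csmd2, a large synaptic membrane protein, had 75.0, 82.9 and 79.6 CPM after saline and 57.9, 59.0 and 58.5 CPM after ethanol (-0.44, SE 0.08, DESeq2 FDR 0.00915). Zbtb37, a zinc-finger protein whose gene overlaps Gas5 on the other strand, had 18.2 to 21.6 CPM against 9.86 to 14.1 CPM (-0.78, SE 0.15, DESeq2 FDR 0.00622). Once the length trend was removed, Zbtb37 was still called (DESeq2 FDR 0.0773), while Rreb1 and Csmd2 had FDRs of 0.116 and 0.715. With GC content removed too, Rreb1 (DESeq2 FDR 0.0194) was called and Csmd2 (0.224) was not.

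The 8 largest negative fold changes under the naming rule belonged to Rapgef4os3, Flnc, Cfap44, Dnah7b, Rtl1, Dcx, Myo5c and Plag1. Rtl1, a paternally expressed gene that descends from a retrotransposon and carries microRNA genes on its other strand, had 7.34, 7.45 and 6.5 CPM after saline and 2.79, 4.62 and 3.95 CPM after ethanol. The groups did not overlap (-0.90, SE 0.18, DESeq2 FDR 0.0108, and 0.0395 with the length trend removed). Dcx, which encodes the microtubule protein doublecortin of immature neurons, had 36.0, 25.9 and 34.6 CPM against 24.9, 16.5 and 11.5 CPM (-0.87, SE 0.24, DESeq2 FDR 0.0541). Rapgef4os3, an antisense transcript of Rapgef4, had 1.58 to 2.76 CPM against 0.707 to 1.07 CPM (-1.15, SE 0.29). Cfap44 (-0.97, SE 0.25) and Dnah7b (-0.91, SE 0.25) encode parts of motile cilia, Plag1 (-0.83, SE 0.22) a zinc-finger transcription factor and Myo5c (-0.83, SE 0.22) an unconventional myosin, each below 10 CPM. Of these 8, Rtl1 alone was called with the length trend removed, and Rtl1, Dcx, Rapgef4os3 and Flnc with GC content removed too.

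Flnc, the actin crosslinker filamin C, had 2.16, 1.99 and 2.08 CPM after saline and 0.931, 0.764 and 1.38 CPM after ethanol (-1.02, SE 0.25, DESeq2 FDR 0.0832). Flna, Col5a1, Lama2, Lama5, Tnxb and Enpp1, picked out after their values were seen because vessels and meninges also express them, were among the lower calls at -0.40, -0.76, -0.52, -0.48, -0.67 and -0.78. Of 13 markers of meningeal and vascular fibroblasts, 0 were above 0 and 1 was lower with an unadjusted p below 0.05, and no marker was called or separated the groups. Their median was -0.58, with an SD of 0.464 between libraries of a group, and their summed level was 74.6 to 136 CPM in the saline libraries and 45.4 to 105 CPM in the ethanol libraries. Of 10 mural cell markers, 8 were below 0 or at it, 4 were lower with an unadjusted p below 0.05, and the sum was 196 to 210 CPM against 166 to 188 CPM. The share lower at that threshold was 6.04% over all genes. Notch3, the receptor of vascular smooth muscle and pericytes, was called at -0.44 (SE 0.10, DESeq2 FDR 0.0873). With the length trend removed, Notch3 (DESeq2 FDR 0.377), Flna (0.495) and Lama2 (0.563) were not called. The part of these cells in the levels of Flnc and the other matrix genes was not tested.

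Of 25 histone methyltransferase genes, 10 were lower with an unadjusted p below 0.05 and 0 were higher, against 6.04% lower and 4.31% higher over all genes, and 3 were called by DESeq2. Kmt2d, which methylates histone H3 at enhancers, had 129, 130 and 103 CPM after saline and 79.8, 54.1 and 77.0 CPM after ethanol (-0.78, SE 0.15, DESeq2 FDR 0.0057). Its relative Kmt2c had 87.9, 80.4 and 87.0 CPM against 70.4, 58.9 and 47.9 CPM (-0.53, SE 0.13, DESeq2 FDR 0.0638), and Setd5 went from 103 to 111 CPM down to 82.5 to 91.2 CPM (-0.33, SE 0.08, DESeq2 FDR 0.0889). The list median was -0.24. Of 25 chromatin remodelers, 8 were lower and 0 higher at the same unadjusted threshold, with the smallest p-values for Srcap (-0.41) and Ep400 (-0.28), relatives that exchange histone variants, and the median was -0.18. Of 15 histone acetyltransferases, 4 were lower, among them the coactivator Crebbp with 54.4 to 60.4 CPM against 32.5 to 46.7 CPM (-0.56, SE 0.13, DESeq2 FDR 0.0421) and its partner Ep300 (-0.23). Bahcc1, a chromatin protein that reads histone methylation, had 28.0 to 30.1 CPM against 18.4 to 22.8 CPM (-0.45, SE 0.10, DESeq2 FDR 0.0651).

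These genes are long, and their medians moved towards 0 when the length trend was removed. The median of the longest class of all genes went from -0.14 to 0.03 in the same step, which also takes out any ethanol difference that runs with length. The median exon length was 10444 bases for the methyltransferases, 10737 for the remodelers and 7906 for the acetyltransferases, and in the longest class of genes 21.6% had an unadjusted p below 0.05 in either direction. After the trend was removed the medians were -0.08, -0.04 and -0.02. Kmt2d then had a DESeq2 FDR of 0.272, Crebbp 0.332, Kmt2c 0.423 and Setd5 0.886. With GC content removed too, Kmt2d and Crebbp were called (DESeq2 FDRs 0.0116 and 0.0648) and Kmt2c (0.213), Setd5 (0.593) and Bahcc1 (0.128) were not. Histone deacetylases, with a median exon length of 5091 bases, had a median of 0.02, with 2 lower and 1 higher of 16.

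Among synaptic receptors and channels, DESeq2 called 1 glutamate receptor and 1 calcium channel gene. Grin2b, a subunit of the NMDA receptor that ethanol inhibits, had 512, 359 and 380 CPM after saline and 306, 222 and 258 CPM after ethanol. The lowest saline mouse was above the highest ethanol mouse (-0.67, SE 0.15, DESeq2 FDR 0.0271). Grin2a, the other main NMDA subunit of the adult cortex, was at -0.48 (DESeq2 FDR 0.138) and was not called. Cacna1e, the pore of R-type calcium channels, had 245, 232 and 219 CPM against 177, 153 and 159 CPM (-0.51, SE 0.09, DESeq2 FDR 0.00284). Of 15 voltage-gated calcium channel genes, 6 were lower and 1 higher at an unadjusted p below 0.05, with a median of -0.21. Of 18 ionotropic glutamate receptor genes, 2 were lower and 0 higher, with a median of -0.10, and of 14 GABA-A receptor genes 2 were lower and 1 higher, with a median of -0.10. The 2 lower GABA-A genes, looked up after their values were seen, were Gabra2 (-0.44) and Gabra6 (-6.22). The higher one was Gabra5 (0.36, DESeq2 FDR 0.221), with the smallest p of the list. DESeq2 gave Gabra6 no FDR. Without overlap, 0 GABA-A genes were lower and 1 was higher, so the groups of Gabra6 were not separated despite its large fold change. Over all genes, 6.04% were lower and 4.31% higher at that threshold. With the length trend removed the 3 medians were -0.02, 0.03 and -0.03, and the DESeq2 FDRs of Grin2b and Cacna1e were 0.381 and 0.552. With GC content removed too they were 0.145 and 0.0921. Of 30 genes of receptor clustering and the postsynaptic scaffold, 5 were lower and 0 higher at an unadjusted p below 0.05, with Shank1 (-0.46), a postsynaptic scaffold, first, and the median was -0.06. Robo3, an axon guidance receptor with an exon length of 6848 bases, had 35.7, 39.8 and 32.8 CPM against 25.8, 20.5 and 27.5 CPM (-0.55, SE 0.12, DESeq2 FDR 0.0445, 0.166 with the length trend removed, and 0.00798 with GC content removed too).

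Glial transporters were among the lower calls. Slc1a2, the main glutamate transporter of astrocytes, had 2259, 1903 and 1998 CPM after saline and 1685, 1267 and 1589 CPM after ethanol (-0.44, SE 0.12, DESeq2 FDR 0.0998). Slc4a4, the astrocytic bicarbonate transporter, was at -0.41 (SE 0.10, DESeq2 FDR 0.0986), and Slc7a11, the cystine-glutamate exchanger, at -0.58 (SE 0.16, DESeq2 FDR 0.0986). None of the 3 was called with the length trend removed, where Slc1a2 and Slc4a4 were both at -0.25 and Slc7a11 at -0.37 (DESeq2 FDRs 0.596, 0.551 and 0.565). Of 12 astrocyte markers, which include Slc1a2 and Slc4a4, 3 were lower and 1 higher at an unadjusted p below 0.05, and their sum was 3477 to 4059 CPM against 2824 to 3445 CPM. The median over them was -0.12, and 0.00 with the length trend removed. The shares over all genes were 6.04% lower and 4.31% higher.

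Of 10 long noncoding RNAs known to stay in the nucleus, 6 were lower and 0 higher at an unadjusted p below 0.05, 3 were called by DESeq2, and the median was -0.35. All genes tested had shares of 6.04% lower and 4.31% higher at that threshold. Meg3, a maternally expressed RNA, had 3271, 3382 and 2880 CPM after saline and 2359, 2375 and 1652 CPM after ethanol (-0.58, SE 0.14, DESeq2 FDR 0.0407). Miat had 436 to 492 CPM against 309 to 383 CPM (-0.38, SE 0.10, DESeq2 FDR 0.0998). Snhg14, the long transcript that runs across Ube3a on the other strand, had 330, 297 and 270 CPM against 213, 204 and 116 CPM (-0.75, SE 0.20, DESeq2 FDR 0.0421). Malat1, an abundant RNA of nuclear speckles picked out after its values were seen, had 583 to 754 CPM against 298 to 523 CPM (-0.56, SE 0.20) and was not called. The list median was still -0.24 with the length trend removed, where Meg3, Miat and Snhg14 had DESeq2 FDRs of 0.401, 0.509 and 0.269.

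Meg3 and Rtl1 are neighbours in the imprinted Dlk1-Dio3 region of chromosome 12, on opposite strands, so Mirg and Rian of that region were looked up after these values were seen. Mirg, its long microRNA host transcript, had 23.9 to 28.5 CPM against 20.8 to 23.1 CPM (-0.25, SE 0.10), and Rian had 506 to 514 CPM against 396 to 533 CPM (-0.08, SE 0.11). Mirg did not overlap between groups and Rian did, and neither was called. TEC models had a median of -0.43 over 1017 tested and took 0.247% ± 0.00551 of counts after saline and 0.219% ± 0.00591 after ethanol (SD, n = 3; exact permutation p = 0.1). Over 4961 long noncoding RNAs the median was -0.07.

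Genes of protein synthesis, respiration and protein folding had medians above 0, and none was called by either tool. Of 28 ribosomal protein genes, 28 were above 0 and 12 were higher at an unadjusted p below 0.05, with a median of 0.20 and a list sum of 4043 to 4174 CPM after saline and 4324 to 4955 CPM after ethanol. Of 23 subunits of mitochondrial complex I, the entry point of the respiratory chain, 23 were above 0 and 10 were higher, with a median of 0.20. Ndufb9 (0.29), Ndufs3 (0.24) and Ndufb8 (0.26) had the smallest p-values. Among all genes tested, 4.31% were higher and 6.04% lower at that threshold. The ribosomal and complex I genes are short, with median exon lengths of 1752 and 1718 bases, and both medians remained positive with the length trend removed (0.14 and 0.15). In the class of all genes with 1242 to 2198 bases, the median was 0.11 and went to 0.05 in that step. In that class 12.5% had an unadjusted p below 0.05 in either direction. Chaperones had a median of 0.16 and a sum of 4813 to 5345 CPM against 5684 to 5839 CPM, with Hspa8 (0.28) and Hspe1 (0.26) at the smallest p-values, and the unfolded protein response list a median of 0.16, with Ddit3 (0.25), a stress-induced transcription factor, and Trib3 (0.93) at the smallest. Their medians were 0.20 and 0.17 with the length trend removed. Of 16 targets of NRF2, the regulator of the oxidative stress response, 3 were higher and 1 (Slc7a11) lower at an unadjusted p below 0.05, with a median of 0.08.

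Of 11 genes of ethanol and acetate metabolism, 1 was higher and 0 lower at an unadjusted p below 0.05 (Aldh1b1, a mitochondrial aldehyde dehydrogenase, 0.52). Acss2, which makes acetyl-CoA from acetate, had 45.9, 57.1 and 55.7 CPM after saline and 51.6, 47.6 and 52.9 CPM after ethanol, and the groups overlapped. Of 21 innate immune signalling genes tested, 1 was higher, and Tnf, Il6 and Ccl2 were too low to test. Of 21 activity-response genes, 1 was higher (Jun, 0.40), while Npas4 (-0.75) and Btg2 (-0.70) overlapped between the groups, with the list sum ranging from 979 to 1372 CPM after saline and from 742 to 1874 CPM after ethanol. Opioid peptide and receptor genes had a median of 0.19 with 0 of 7 past that threshold, and of 19 circadian clock genes 2 were lower and 0 higher, with a median of -0.04. For comparison, 4.31% of all genes were higher and 6.04% lower.

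Markers of cell types and layers are given because the dissected tissue can vary. All 16 myelin genes were above 0 (median 0.29), with sums of 1319 to 2804 CPM after saline and 2209 to 3389 CPM after ethanol, which overlap. Of 10 upper-layer markers, 3 were lower at an unadjusted p below 0.05, with a median of -0.38, against 6.04% lower over all genes. The median log2 levels of these markers, relative to the mean of the 6 libraries, were 0.52, -0.22 and -0.05 after saline. After ethanol they were -0.16, -0.36 and 0.23, so the groups overlapped. The fold-change median ran from -0.53 to 0.07 over the alternatives. Rorb, a marker of layer 4, had 42.1, 44.3 and 66.5 CPM against 40.6, 15.3 and 21.2 CPM (-0.99, SE 0.31) and was not called. Of 13 deep-layer markers, 11 were above 0, with a median of 0.14 (-0.21 to 0.43 over the alternatives) and 0 past the threshold. CP replicate 3 was the highest library for upper-layer markers (0.52) and the lowest for deep-layer (-0.57) and myelin (-0.68) markers. Without this library 5 DESeq2 gene calls were left. Medians over markers of microglia, oligodendrocyte precursors, endothelial cells and interneurons were 0.10, 0.08, -0.04 and -0.01. The part of the layers and cells sampled in the differences above was not tested.

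**Figure D4:**
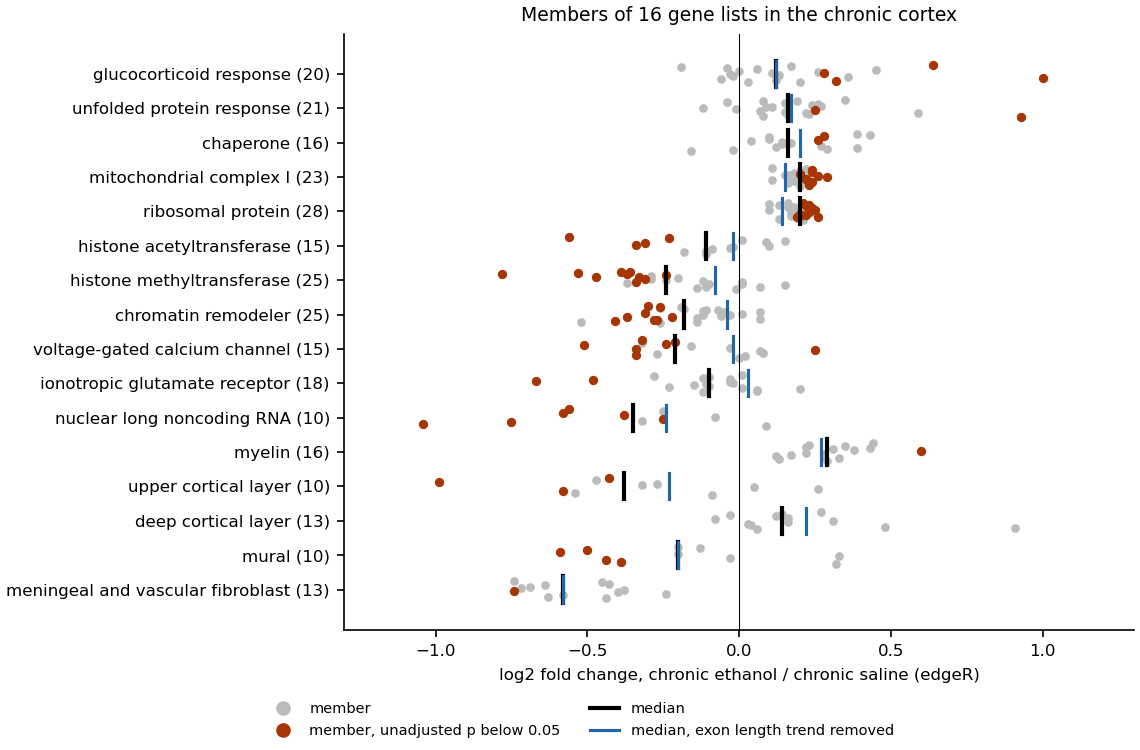
Log2 fold change (edgeR) of every tested member of 16 gene lists in the chronic cortex, with the number of members in brackets, members with an unadjusted p below 0.05 in brown, the list median in black and the median after removal of the exon length trend in blue. All 28 ribosomal protein and 23 complex I genes lie above 0 and all 13 fibroblast markers below 0, and the medians of the methyltransferase, remodeler and calcium channel lists move from -0.24, -0.18 and -0.21 to -0.08, -0.04 and -0.02.

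At the level of transcript isoforms, edgeR called 0 of 128747 (0% called; smallest FDR 0.216, with 12621, or 9.8%, at an unadjusted p below 0.05), and DESeq2 called 387 (0.301%), 118 higher (0.0917%) and 269 lower (0.209%), from 151 genes. Isoforms of a gene share reads, since a pair was counted for each isoform it overlaps, and the calls of 1 gene are not independent. Of 13 isoforms of Fkbp5 tested, 12 were above 0 and 8 were called. Chst8 had 4 of 6 called, Xlr3a 6 of 7, Xlr3b 3 of 3, Cacna1e 6 of 8 and Robo3 4 of 6, each in the direction of its gene. Sh3bp5 and Plin4 had 0 of 4 and 0 of 2 called. Of the 156 genes called by DESeq2, 118 also had a called isoform.

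A further 33 genes had 105 called isoforms but no gene call, 63 isoforms higher and 42 lower. The long noncoding model Gm31816, singled out after its values were seen, accounted for 55 of the 63, and so for 55 of all 118 higher isoform calls. The whole gene had 0.111, 0.110 and 0.0191 CPM after saline and 0.442, 0.523 and 0.452 CPM after ethanol. Its saline values rest on few counts, each counted again for every isoform it overlaps, so the 55 are not separate results. Isoforms of Nmral1, a redox-sensing protein, were higher by 0.60 to 0.63 with 1.24 to 1.51 CPM after saline and 1.72 to 2.48 CPM after ethanol. Camk1g-204, of a calcium-dependent kinase, was higher by 0.61 (SE 0.16) and Adra1b-203, of the alpha-1B adrenergic receptor, by 0.58 (SE 0.14), from 6.14, 9.19 and 6.60 CPM to 9.74, 11.8 and 11.2 CPM. The whole Camk1g and Adra1b genes were at 0.57 and 0.52 and were not called.

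Among the lower isoforms whose gene was not called, Cabp1-207, a retained-intron form of a calcium-binding protein gene, had 8.21, 8.47 and 7.66 CPM after saline and 5.18, 4.15 and 4.62 CPM after ethanol (-0.80, SE 0.11, DESeq2 FDR 1.33e-05), whereas the whole gene was at 0.07. Adam23-211, a retained-intron form of a membrane adhesion protein gene, had 1.37, 1.12 and 1.24 CPM against 0.628, 0.456 and 0.254 CPM (-1.49, SE 0.26), with the gene at -0.22. Hnrnpr-210 (-1.27, SE 0.25), of a splicing factor, Cux1-202 (-1.09, SE 0.26), of an upper-layer transcription factor whose gene was at -0.43, and Adamts10-206 (-0.80, SE 0.15), of a matrix protease, are annotated with no defined coding sequence. Retained-intron isoforms as a class held 37 lower and 6 higher DESeq2 calls among 20285 tested, with a median log2 fold change of 0.00. Protein-coding isoforms held 135 lower and 42 higher among 47224. Over all 128747 isoforms, 0.209% were called lower and 0.0917% higher. The share called lower was below this for retained-intron isoforms and above it for protein-coding ones.

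The acute cortex gave an independent contrast, since it shares no library with the chronic one. There edgeR called 515 of 25905 genes (1.99%), 212 higher (0.818%) and 303 lower (1.17%). Of the 156 chronic DESeq2 calls, 109 (69.9%) had the same sign after acute ethanol, against 54.1% of all 25009 genes tested in both. The 156 include Gapdh copies and Xlr3 genes that share reads, so they are not all separate results. Among the 2595 genes with a chronic edgeR p below 0.05 that were tested in both, the share was 64.5%. Of the 28 higher genes, edgeR called 2 in the acute cortex, both higher: Fkbp5 at 0.93 (SE 0.13, FDR 0.0103) and Islr2 at 0.86 (SE 0.12, FDR 0.0103). Fkbp5 was at 31.5, 36.4 and 39.7 CPM after acute saline and 51.9, 77.5 and 75.4 CPM after acute ethanol, while the chronic saline mice scaled with them lay at 23.4 to 26.2 CPM. Of the 128 lower genes, 6 were called lower in the acute cortex and 0 higher, among them Grin2b (-0.24, SE 0.06, FDR 0.0991) and Slc7a11 (-0.38, SE 0.07, FDR 0.0356). With DESeq2, which called 957 genes in the acute cortex (3.69%; 1.48% higher and 2.21% lower), 5 of the 28 higher and 18 of the 128 lower genes were called in the same direction and 0 in the other. Conversely, 76% of the 513 acute edgeR calls tested in both had the same sign after chronic ethanol, and 95 of them had that sign with a chronic p below 0.05.

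**Figure D5:**
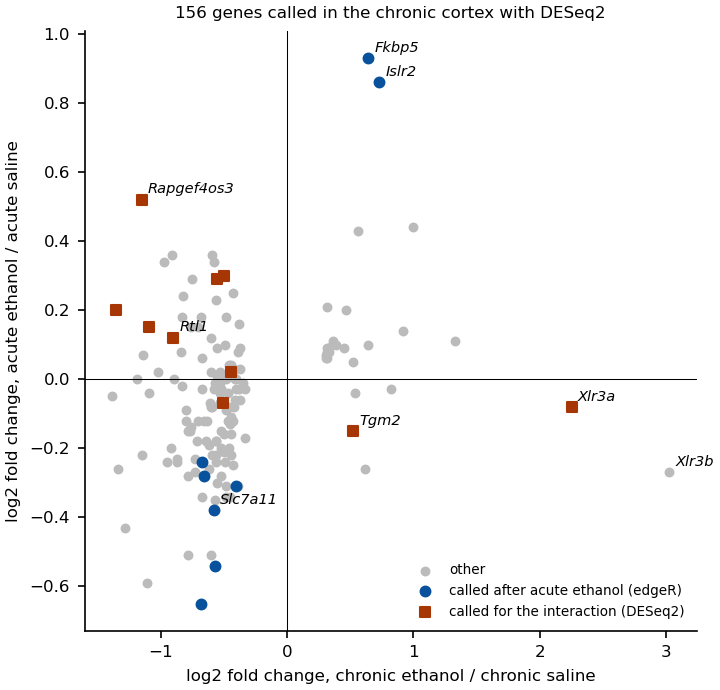
Log2 fold change after acute ethanol (vertical) against that after chronic ethanol (horizontal) for the 156 genes called by DESeq2 in the chronic cortex; blue, genes also called in the acute cortex by edgeR; brown squares, genes called for the interaction by DESeq2. Fkbp5 and Islr2 are high on both axes. Xlr3a, Rtl1 and Tgm2 have chronic values of 2.25, -0.90 and 0.52 and acute values of -0.08, 0.12 and -0.15. EdgeR called 0 genes for the interaction.

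Whether the ethanol difference itself depended on the paradigm was tested with the interaction term over the 12 cortex libraries. EdgeR called 0 of 26540 genes (0% called; smallest FDR 0.6, with 2174, or 8.19%, at an unadjusted p below 0.05) and DESeq2 called 21 (0.0791%), 6 higher (0.0226%) and 15 lower (0.0565%), 10 of which were chronic DESeq2 calls. Tgm2 was at 14, 12.6 and 12.5 CPM after acute saline and 10.9, 11.8 and 12.4 CPM after acute ethanol, so that the groups did not overlap, with the ethanol values below the saline ones, but the acute difference of -0.15 (SE 0.09) was not called by edgeR (FDR 0.529) or DESeq2 (FDR 0.569). The difference between the acute and chronic contrasts was called by DESeq2 alone (interaction 0.66, edgeR FDR 0.6, DESeq2 FDR 0.0906). For Xlr3a (2.31, DESeq2 FDR 0.0906) and Xlr3c (3.44, DESeq2 FDR 0.0126) the chronic saline group was the low one of the 4. Cacna1e (edgeR interaction -0.45), Csmd2 (-0.47), Rtl1 (-1.03) and Robo3 (-0.86) were called by DESeq2 with FDRs of 0.0906 to 0.0911. Robo3 had 22.5, 21.7 and 30.2 CPM after acute saline, overlapping the chronic ethanol mice. Fkbp5 (-0.30, edgeR FDR 0.678) and Islr2 (-0.14, edgeR FDR 0.888) gave no call, which does not show that the acute and chronic differences were equal.

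The chronic libraries of other regions, partly from the same mice, give the levels of single genes beyond the cortex. Fkbp5 was higher after ethanol with no overlap in dHPC (57.3 to 70.9 against 79.7 to 86.4 CPM), DS (41.2 to 47.4 against 49.9 to 68.5 CPM) and VS (36.4 to 47.0 against 57.9 to 62.7 CPM), and overlapped in vHPC (73.8 to 83.7 against 73.5 to 87.7 CPM). Tgm2 was higher with no overlap in dHPC (9.69 to 10.7 against 13.1 to 19.7 CPM), vHPC (7.97 to 9.63 against 13.1 to 13.3 CPM) and DS (10.0 to 12.4 against 14.7 to 21.1 CPM). In VS its groups met at 12.4 CPM. Plin4, which overlapped in the cortex, was higher with no overlap in all 4 other regions, for example 3.37 to 8.06 against 16.3 to 25.5 CPM in vHPC. These regions share mice with the cortex and with each other and are not separate replicates. Groups without overlap are common among so few libraries: in the cortex 18.2% of all genes had them. That share was not counted in the other regions, so lack of overlap there is a description and not a call. The study's own chronic calls were Fkbp5 in cortex, dHPC and VS and Tgm2 in cortex, dHPC and DS. For Plin4 they were dHPC, vHPC and VS.

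Other named genes were looked at in the same way. Chst8 was higher with no overlap in the cortex, whereas in DS it was lower, at 4.33 and 6.07 CPM in 2 saline libraries against 0.719 to 2.71 CPM in 4 ethanol libraries, and in dHPC, vHPC and VS the groups overlapped. The third DS saline library has no counts on 6 chromosomes, among them the one that carries Chst8, and was left out of that value. The DS values of Chst8 rest on few counts, 80 and 44 after saline and 8 to 42 after ethanol. Bahcc1 was lower with no overlap in dHPC (26.7 to 31.1 against 21.1 to 22.8 CPM) and vHPC (33.9 to 36.9 against 23.2 to 30.8 CPM) and overlapped in DS and VS. Kmt2d, at 103 to 130 against 54.1 to 79.8 CPM in the cortex, overlapped in each of the other 4 regions. Sh3bp5 was higher with no overlap in dHPC (84.3 to 108 against 120 to 140 CPM) and overlapped in vHPC and VS. In DS it overlapped only through the saline library that lacks 6 chromosomes (29.1 CPM), and the other 2 saline libraries (35.7 and 42.2 CPM) lay above the 4 ethanol libraries (27.7 to 31.0 CPM). That library is also in the DS values of Fkbp5, Tgm2, Plin4, Bahcc1 and Kmt2d, where leaving it out changed no statement of overlap. The difference between regions was not tested for these genes, and kit and sequencer differed between cortex and DS, VS and vHPC.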

How the data were processed

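Poly(A) RNA of 6 chronic cortex libraries was analysed, with 6 acute cortex and 25 chronic libraries of other regions for comparison. The deposited tables hold raw read-pair counts per gene (56415 genes) and per isoform (218795), which the authors made with Cutadapt 5.0, STAR 2.7.10a on GRCm39 and featureCounts 2.0.6. Pairs mapping to several places or overlapping several features were counted for each, with a reverse-strand setting on a cortex kit that does not keep strand. Counts of pseudogenes, paralogs and isoforms are therefore not independent, and isoform totals exceed gene totals.

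Samples were grouped by GEO label. A gene was tested where 2 or more libraries of a group held 5 counts or more, and the test was edgeR 4.0.16 (TMM scaling, quasi-likelihood F test, CE and CP cortex only) with Benjamini-Hochberg FDR below 0.1. DESeq2 1.42.0 (Wald test), the test of the study, was the main alternative, and it gave no adjusted p for 6961 genes. Levels are TMM-scaled CPM. Trends with exon length and GC content were removed per library with a natural spline of 5 degrees of freedom. Named genes were those the study names for the chronic cortex, the 8 largest differences and the 5 smallest p-values in each direction, members of gene lists called by DESeq2 or, where none was, those with the smallest p, and the Xlr family, and others are said to be named after their values were seen. A result that falls under this rule is not reported here. The 8 largest differences were taken among DESeq2 calls whose groups did not overlap, so the lack of overlap is a condition of their naming. The members and lists were chosen with earlier results of these data known. The fits were tested on simulated counts. Each library is a separate mouse, so p-values measure the spread between 3 mice per group. Leaving out each library, other filters, scalings and fits were tried as alternatives.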

Additional observations from a re-analysis of the deposited data

Results flagged for a closer look

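Tgm2, the transglutaminase 2 gene, stood out because the ethanol mice lay above the saline mice in the chronic cortex and below them in the acute cortex, with no overlap in either. After chronic ethanol all 3 mice were above the 3 saline mice (9.0 to 9.69 against 11.7 to 14.6 CPM), and after acute ethanol all 3 were below them (12.5 to 14 against 10.9 to 12.4 CPM). The acute difference of -0.15 was small, its groups were separated by 12.4 against 12.5 CPM, and neither tool called it (edgeR FDR 0.529, DESeq2 FDR 0.569). The interaction was 0.66 on the log2 scale, which DESeq2 called (FDR 0.0906) and edgeR did not (FDR 0.6). The 2 saline groups also differed from each other, the acute one being the higher, and their part in this difference was not tested.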

How the results depend on the processing

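The edgeR gene count of 0 (with 2656 genes at an unadjusted p below 0.05) became 156 with DESeq2, 104 with no filter on low counts and 77 with all 4 cortex groups in the fit, and it was 0 with other scaling, the stricter filter, length or GC removed, pseudogenes left out, legacy=FALSE and each library left out. The planned legacy=TRUE fit is the default of this edgeR version and therefore the reported one. The DESeq2 count of 156 was 1252 with all 4 groups and 31 with the exon length trend removed, and ranged from 5 (without CP replicate 3) to 917 (without CE replicate 1) as libraries were left out. For isoforms, the edgeR count of 0 became 387 with DESeq2, 514 with no filter and 93 with all 4 groups. For the interaction, 0 became 21 with DESeq2, and the range without each library was 0 to 2 (1 without CP replicate 3, 2 without CE replicate 1). The cause of these changes was not tested.

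Replicate numbers 5 and 6 occur in both groups but name different mice, and deviations of same-numbered libraries correlated at 0.0775 and -0.313. So few pairs cannot show whether same-numbered mice shared more than the number, which was not tested. With the replicate number as a block, edgeR called 143 genes and 2125 isoforms. CP replicate 3 and CE replicate 1 have no partner in that fit and add nothing to its treatment difference. Little is then left to measure the spread, so these counts are weak.

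Tmem151b was -0.06 without CE replicate 6 and reached 0.19 without CE replicate 1. Xlr ranged from -0.19 (without CE replicate 5) to 0.36 (without CE replicate 6). Rian was 0.20 with the exon length trend removed and 0.43 with GC content too, and ranged from -0.15 to 0.05 as libraries were left out. Acss2 was 0.07 and 0.05 with these trends removed. Of 37 list medians, 18 had the other sign under at least 1 alternative.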
